A study of Mus musculus with 32 samples.

Results

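The complement system was followed through 31 of the 43035 genes in the count tables, listed by symbol as components and regulators of complement and each matched to 1 Ensembl gene. DUX4, a transcription factor misexpressed in facioscapulohumeral muscular dystrophy, was inducible in the mutant mice, which were set against wild-type (WT) mice, and every mouse of both genotypes received doxycycline chow. Whole muscle gave 5 DUX4 libraries at 2 weeks (IDUX.2Weeks) set against 5 WT libraries (WT.2Weeks), and 4 DUX4 libraries at 16 weeks (IDUX.16Weeks) set against 4 WT libraries (WT.16Weeks). From hind limb muscle, CD31+ endothelial cells were sorted into 4 samples of DUX4 mice (CD31DUX) and 3 of WT mice (CD31WT). PDGFRa+ cells, the fibro-adipogenic progenitors (FAPs) that lie between the muscle fibres, gave 4 samples of DUX4 mice (PDGDUX) and 3 of WT mice (PDGWT). Not given in the sources used here are the driver and insertion of the transgene, the sex and age of the mice, which muscles were used, when cells were sorted and whether each library was a separate animal, so the p-values measure the spread between libraries, which may be technical.

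Complement is a cascade of serum proteins that tags surfaces for uptake and can pierce membranes. In the classical pathway C1q recognises a target and its proteases C1r and C1s cleave C4 and C2. In the lectin pathway the MASP proteases do the same work. Both pathways lead to cleavage of C3, which the alternative pathway amplifies with factor B, factor D and properdin. C5 to C9 then form the membrane attack complex, and inhibitors in plasma and on cell membranes hold each step back. The liver supplies most of the circulating proteins, whereas C1q is made mainly by macrophages and related cells and factor D (adipsin) mainly by fat cells.

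By role the list held 10 genes of classical initiation (C1qa, C1qb, C1qc, C1ra, C1rl, C1s1, C1s2, C2, C4a and C4b) and 2 lectin proteases (Masp1 and Masp2). C3 and the alternative pathway gave 4 genes (C3, Cfb, Cfd and Cfp), and the terminal pathway gave 5 (Hc, C6, C7, C8g and C9). Regulators were 3 soluble (Cfi, Serping1 and Clu) and 4 on membranes (Cd55, Cd59a, Cd46 and Cr1l), and 3 genes encoded receptors (C3ar1, C5ar1 and Vsig4). A filter on low counts left 24 of the 31 genes to be tested in whole muscle and 28 in sorted cells. C6, C9 and Cfi were tested in neither, and C1s2, Hc, C7 and Vsig4 were tested in sorted cells only.

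The results turned on C1ra and C1s1, neighbours on chromosome 6 that were both called higher in endothelial cells of DUX4 mice, and on Cd59a. Cd59a was called lower in endothelial cells and higher in 16-week muscle, with both calls lost in several alternatives. Serping1, on chromosome 2, and 7 of 8 FAP marker genes were called higher in the same endothelial libraries. The part of FAP RNA in the rise of C1ra and C1s1 was not tested. The promoters of C1ra, C1s1 and Cd59a are shown because the results turned on these genes. Each runs from 250 bases before to 50 bases after the RefSeq start, 5′ to 3′ on the gene's own strand, on GRCm38.p6. C1ra lies on the plus strand with its promoter at chr6:124512371-124512670, C1s1 on the minus strand at chr6:124542310-124542609, and Cd59a on the plus strand of chromosome 2 at chr2:104095551-104095850. The GENCODE annotation begins the C1ra gene earlier, at 124512405, so part of its window before the RefSeq start lies within the gene. Capitals mark matches, on either strand, to the STAT-type site TTCNNNGAA or the interferon-response type site GAAANNGAA, motifs chosen after these promoters had been scanned.
C1ra: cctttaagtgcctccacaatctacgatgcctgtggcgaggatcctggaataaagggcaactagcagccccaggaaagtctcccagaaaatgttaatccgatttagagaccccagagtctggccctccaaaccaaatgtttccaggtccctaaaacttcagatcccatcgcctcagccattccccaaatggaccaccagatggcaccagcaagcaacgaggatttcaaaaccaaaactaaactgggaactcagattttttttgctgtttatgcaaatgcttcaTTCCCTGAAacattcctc
C1s1: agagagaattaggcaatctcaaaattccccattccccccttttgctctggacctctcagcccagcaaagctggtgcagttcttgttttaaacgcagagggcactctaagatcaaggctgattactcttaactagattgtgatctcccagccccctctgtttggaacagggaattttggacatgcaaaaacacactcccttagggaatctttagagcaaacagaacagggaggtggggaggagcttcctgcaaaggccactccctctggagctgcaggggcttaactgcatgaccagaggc
Cd59a: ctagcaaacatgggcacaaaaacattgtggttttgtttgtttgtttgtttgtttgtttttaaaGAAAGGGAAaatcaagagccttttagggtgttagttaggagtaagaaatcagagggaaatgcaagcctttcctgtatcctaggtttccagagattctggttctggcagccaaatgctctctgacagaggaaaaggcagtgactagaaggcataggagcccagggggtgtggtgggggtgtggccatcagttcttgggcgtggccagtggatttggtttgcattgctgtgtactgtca
The C1ra window held TTCCCTGAA at bases 283 to 291, just after the start, and the Cd59a window held GAAAGGGAA at bases 64 to 72. The C1s1 window held neither motif, and none of the 3 windows held the TATA sequence TATAAA, the third motif searched. Of all 32851 RefSeq promoters of this length, 8.3% held the STAT-type site, 8.56% the interferon-response type site and 13.6% TATAAA. Promoters were in the table for 22 of the 31 genes, and 3 of those 22 genes held the STAT-type site, 4 the interferon-response type site and 4 TATAAA.

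Libraries held 6.07 to 20.7 M counts, so that 3 counts, the limit a count of 0 allows, stood for 0.129 to 0.505 CPM (counts scaled to a common library size), counting error alone. All 9 endothelial markers were lower and all 8 FAP markers higher in FAPs than in endothelial cells, in both genotypes. The endothelial libraries of DUX4 mice held more FAP RNA: the 8 FAP markers summed to 10234 to 11964 CPM in CD31DUX, against 2963 to 4925 CPM in CD31WT, and 7 of the 8 were called higher. The WT endothelial libraries differed in macrophage RNA, with 12 macrophage markers summing to 769, 87.6 and 142 CPM. WT.16Weeks replicate 1 stood apart in muscle, with 212 CPM of macrophage and 123 CPM of FAP markers, against 33.5 to 40.9 and 399 to 488 CPM in the other 3. WT.16Weeks replicate 4 had 1.03 CPM of Xist where the rest of the muscle libraries had 143 to 275 CPM. IDUX.16Weeks replicate 3 had 77.1 CPM of Y-linked genes, beside 171 CPM of Xist, where the rest of the muscle libraries had 1.55 to 12.6 CPM of Y-linked genes. The 2-week libraries fell into 2 sets by Hoxd8, a gene that marks position along the body (45.5 to 72.7 CPM in replicates 1 to 3 of both genotypes, called set 1, and 3.82 to 4.64 CPM in replicates 4 and 5, called set 2), a split that the labels do not mention.

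FAPs were the richer source of most complement transcripts that could be told apart between the sorted cell types. Compared with WT endothelial cells, WT FAPs had higher levels of 10 genes and lower levels of 4 out of 28 tested at an adjusted p under 0.05 (edgeR quasi-likelihood test, adjusted by the Benjamini-Hochberg method over all genes), against 31.1% of all genes called in this comparison, 16.7% higher and 14.5% lower. In DUX4 mice FAPs had higher levels of the same 10 genes and lower levels of 6, against 33.7% of all genes called, 16.4% higher and 17.3% lower. The 10 genes were C1ra, C1rl, C1s1, C2, C4b, C3, Cfb, C7, Serping1 and Cd55. The calls of C2 were lost in 6 of 13 alternatives in WT cells and 5 of 15 in DUX4 cells, those of Cfb in 4 of 13 and 1 of 15, and that of C7 in 7 of 15 in DUX4 cells and 0 of 13 in WT cells. Clu, Cd59a and C3ar1 were lower in FAPs in both genotypes, Masp1 in WT mice, and Cfd, Cfp and C5ar1 in DUX4 mice.

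**Figure D1:**
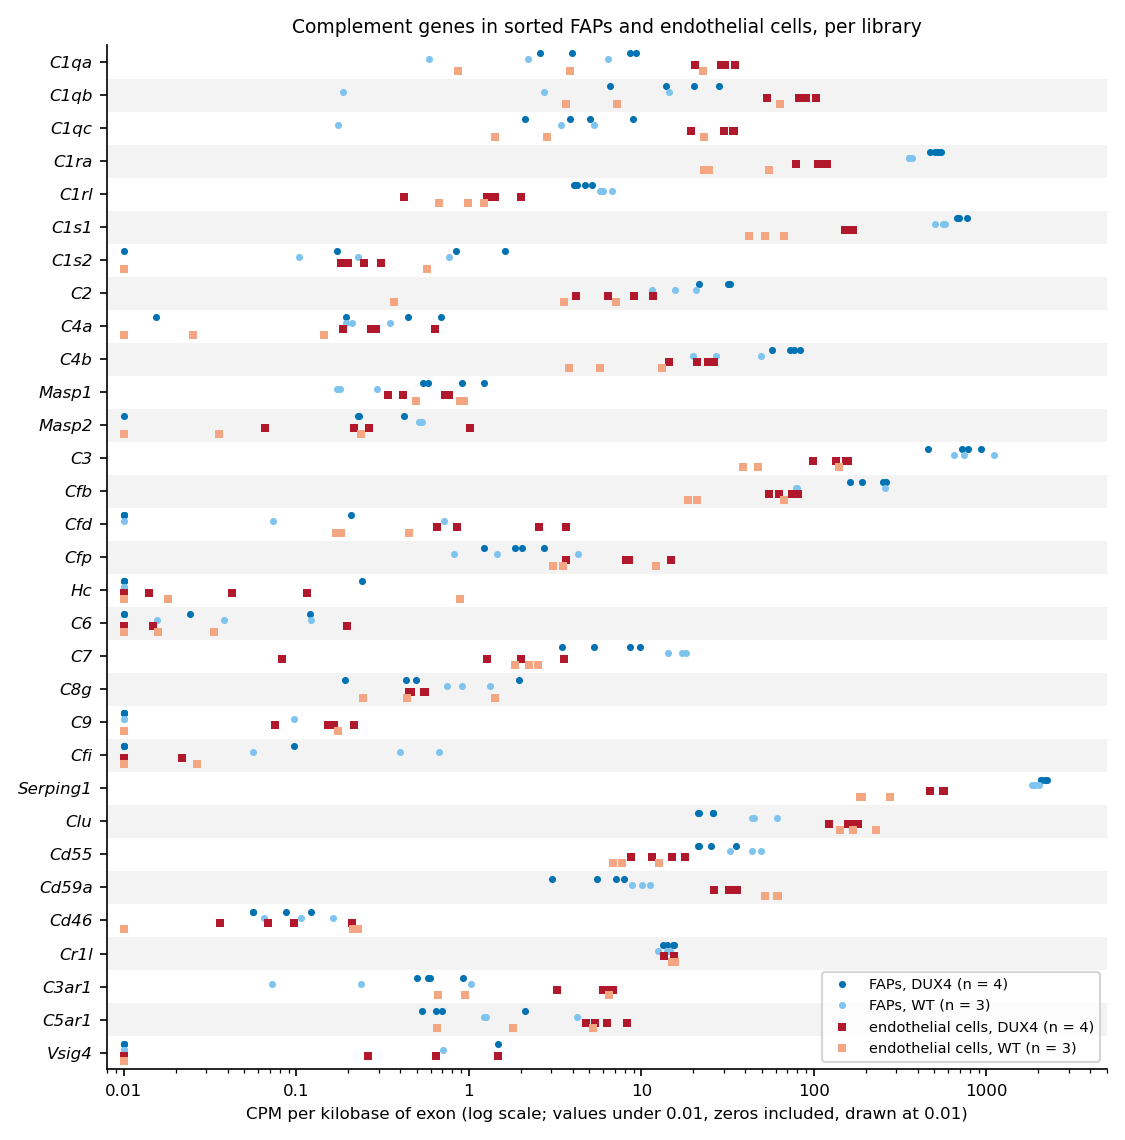
Level of each of the 31 genes in each sorted library, in CPM per kilobase of exon on a log axis, with genes in the order of their roles. Serping1, C3, C1s1 and C1ra lie farthest to the right in FAPs, and Clu and Cd59a lie farther right in endothelial cells. Hc, C6, C9 and Cfi lie toward the left in all groups, with their zeros at the left edge.

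Per kilobase of exon, the scale on which genes can be set against each other, Serping1 was the highest of the 31 genes in all 14 sorted libraries with the union of exons as length. With the longest transcript as length, Clu was the highest in the 3 CD31WT libraries, at a mean of 341 against 285 CPM per kilobase for Serping1. This gene encodes the C1 inhibitor, which removes C1r and C1s from the C1 complex. In FAPs it stood at 2139 ± 86.5 CPM per kilobase in PDGDUX and 1931 ± 89 in PDGWT (SD, n = 4 and 3). C3, the protein on which all pathways meet, followed with 723 ± 195 CPM per kilobase in PDGDUX and 832 ± 243 in PDGWT.

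C1s1 and C1ra, the 2 proteases of the C1 complex, came next in FAPs. C1s1 had 708 ± 43.9 CPM per kilobase in PDGDUX and 546 ± 37.5 in PDGWT, so that C3 and C1s1 did not differ beyond their spread in PDGDUX. C1ra had 511 ± 33.6 CPM per kilobase in PDGDUX and 359 ± 7.67 in PDGWT. Cfb, the protease of the alternative C3 convertase, had 215 ± 47.9 and 139 ± 102 CPM per kilobase in the same groups. C4b followed at a distance, with 72.5 ± 11.1 CPM per kilobase in PDGDUX and 32.1 ± 15.4 in PDGWT.

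In endothelial cells Serping1 had 540 ± 46.7 CPM per kilobase in CD31DUX and 216 ± 52 in CD31WT. Clu, which encodes clusterin, a chaperone that also binds the late complement complex, had 156 ± 24.4 CPM per kilobase in CD31DUX and 180 ± 44.5 in CD31WT. It was the second gene of the list over both endothelial groups and was within the spread of C1s1 (160 ± 8.93) and C3 (136 ± 26.7) in CD31DUX. In CD31WT Clu and Serping1 did not differ beyond their spread.

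The size of the difference between cell types ran from large to slight among the 10 shared genes. C3 was 3.47 ± 0.45 higher on the log2 scale in PDGWT than in CD31WT (SE, adjusted p = 4.37e-05) and 2.41 ± 0.38 higher in PDGDUX than in CD31DUX (adjusted p = 0.000213). C1ra was higher by 3.39 ± 0.27 in WT cells and by 2.31 ± 0.22 in DUX4 cells, with adjusted p of 7.06e-08 and 6.67e-07. C1s1 was higher by 3.34 ± 0.16 and 2.14 ± 0.13, and Serping1 by 3.16 ± 0.16 and 1.99 ± 0.13, with adjusted p between 3.88e-10 and 1.1e-08 over the 4 tests. The FAP RNA in the endothelial libraries, larger in CD31DUX, moved with these smaller differences in DUX4 cells, and its part in them was not tested.

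The members lower in FAPs in both genotypes were the regulators Clu and Cd59a and the receptor C3ar1. The C3ar1 call in WT cells was lost in 7 of 12 alternatives, among them the fit without CD31WT replicate 1, the library richest in macrophage RNA of its group. Cd59a encodes the membrane inhibitor that blocks the last step of pore formation, and it had 9.96, 12.8, 14.3 and 5.48 CPM in PDGDUX against 64.9, 61.1, 58.3 and 47.5 CPM in CD31DUX. In WT cells it had 15.9, 18.3 and 20.2 CPM in PDGWT against 110, 93.7 and 113 CPM in CD31WT. The ranges were far apart, with log2 differences of -2.45 ± 0.23 and -2.54 ± 0.26 (adjusted p = 5.06e-07 and 1.28e-06). Cd55, which speeds the decay of C3 convertases, went the other way, with 104 to 172 CPM in PDGDUX against 42.5 to 86.6 CPM in CD31DUX, and 158 to 240 CPM in PDGWT against 33.1 to 61.1 CPM in CD31WT. Cr1l (Crry), the rodent membrane regulator that helps factor I inactivate C3b, was level across the sorted cells, at 139 to 161 CPM in PDGDUX, 140 to 160 CPM in CD31DUX, 130 to 152 CPM in PDGWT and 156 to 163 CPM in CD31WT. Its log2 difference was 0.01 ± 0.10 between the DUX4 groups and -0.15 ± 0.12 between the WT groups. Cd46, in mice a membrane regulator best known from testis, stayed at or under 1.73 CPM in all 14 sorted libraries.

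In endothelial cells the DUX4 mice had higher levels of the C1 proteases, of C4b and of the C1 inhibitor. Out of 28 tested genes 4 rose (C1ra, C1s1, C4b and Serping1) and 1 fell (Cd59a), against 5.07% of all genes called in CD31DUX over CD31WT, 3.72% higher and 1.35% lower. By role these were 3 of 10 classical initiation genes, 1 of 2 tested soluble regulators and 1 of 4 membrane regulators. The median log2 fold change was 1.0 over the 28 genes and -0.00 over all genes tested.

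C1s1, the protease that cleaves C4 and C2, had 471, 485, 525 and 526 CPM in CD31DUX, against 211, 162 and 132 CPM in CD31WT. The lowest DUX4 library held more than the highest WT library by far, and the log2 fold change was 1.57 ± 0.14 (adjusted p = 7.44e-06). C1ra, which activates C1s, had 236, 324, 313 and 356 CPM in CD31DUX, against 163, 73.5 and 69.1 CPM in CD31WT. Its groups did not overlap either, with a log2 fold change of 1.59 ± 0.24 (adjusted p = 0.000718). Both genes lie side by side on chromosome 6 (GRCm38), C1ra from 124512405 to 124523443 on the plus strand and C1s1 from 124530345 to 124542359 on the minus strand, and their promoters are printed above. Each shares sequence with a copy: 56.9% of the 31-base words of C1ra are also found in C1rb and 36.5% of those of C1s1 in C1s2, so that reads may be divided between them. The third neighbour, C1rl, a C1r-like protease from 124493113 to 124510643, had 1.26 to 6.06 CPM in CD31DUX against 2.01 to 3.68 CPM in CD31WT and was not called.

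Serping1 had 1094, 1325, 1308 and 1297 CPM in CD31DUX, against 643, 428 and 439 CPM in CD31WT, without overlap. The log2 fold change was 1.32 ± 0.14 (adjusted p = 3.11e-05). C1ra, C1s1 and Serping1 kept their calls in all 14 alternatives tried for this comparison. C4b, the source of the fragment that binds covalently to targets, had 82, 150, 138 and 120 CPM in CD31DUX, against 74.6, 21.8 and 32.6 CPM in CD31WT. Its log2 fold change of 1.51 ± 0.40 was near the threshold (adjusted p = 0.0452) and the call was lost in 8 of 14 alternatives.

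Cd59a, printed above for its promoter, fell to 64.9, 61.1, 58.3 and 47.5 CPM in CD31DUX, against 110, 93.7 and 113 CPM in CD31WT. The log2 fold change was -0.87 ± 0.23 (adjusted p = 0.0383), and the call was lost whenever any 1 of the 7 libraries was left out (adjusted p 0.0516 to 0.15). The 9 endothelial markers summed to 3405 to 3896 CPM in CD31DUX against 4737 to 5341 CPM in CD31WT, and none of the 9 was called. Cd59a was 1.36% to 1.79% of that sum in CD31DUX and 1.75% to 2.38% in CD31WT.

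**Figure D2:**
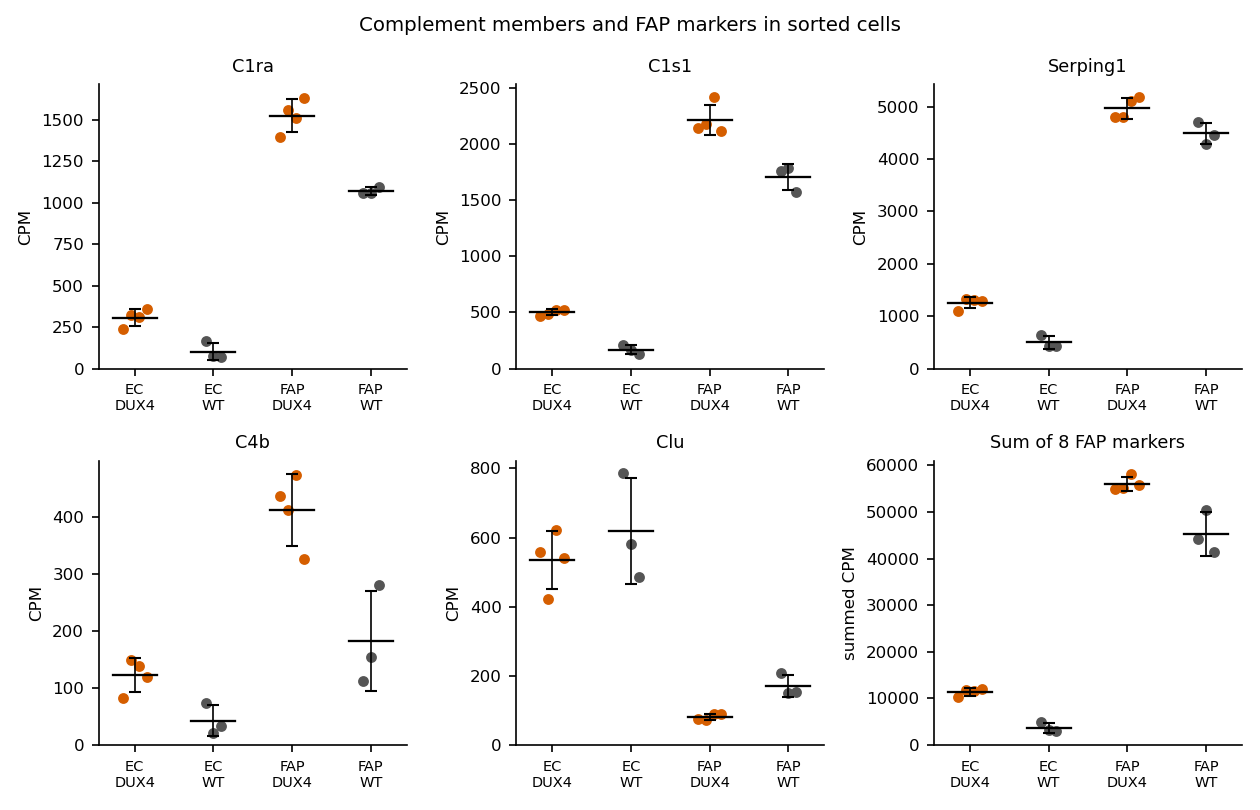
CPM of C1ra, C1s1, Serping1, C4b and Clu, and the summed CPM of 8 FAP markers, in each sorted library (points), with the mean (line) and SD (bar) of each group. C1ra, C1s1, Serping1 and the FAP marker sum are all higher in DUX4 than in WT endothelial cells without overlap, and Clu is lower in DUX4 than in WT FAPs.

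The rise of C1s1 and C1ra moved with the FAP markers in the same libraries. C1s1 amounted to 4.61%, 4.07%, 4.51% and 4.4% of the FAP marker sum in CD31DUX, and to 4.29%, 5.05% and 4.46% in CD31WT, so that on this scale the groups overlapped. In FAPs themselves C1s1 was 3.8% to 4.16% of the sum in PDGDUX and 3.55% to 3.98% in PDGWT. C1ra was 2.31% to 2.98% of the sum in CD31DUX and 2.29% to 3.31% in CD31WT, again with overlap. Serping1 was 10.7% to 11.2% of the sum in CD31DUX and 13.1% to 14.8% in CD31WT, so that relative to FAP markers it was lower in the DUX4 libraries. These ratios, chosen after the values were seen, describe the libraries, and no test was made of them. In bulk libraries, more cells of a type and more RNA per cell cannot be told apart.

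C1q and the anaphylatoxin receptors were higher on average in CD31DUX but did not pass the test. C1qa, a chain of the recognition molecule, had 21.3, 30.3, 36.1 and 31.7 CPM in CD31DUX, against 23.9, 0.895 and 4.02 CPM in CD31WT, where replicate 1 fell among the DUX4 libraries. Its log2 fold change was 1.63 ± 0.90 (adjusted p = 0.383), and 0.0301 without CD31WT replicate 1. C3ar1, the receptor for the C3a fragment, had 14 to 29.3 CPM in CD31DUX and 27.8, 4.08 and 2.84 CPM in CD31WT (adjusted p = 0.533). Without CD31WT replicate 1, 9 genes were called rather than 5, adding C1qa, C1qc, C3, C3ar1 and Cfb and losing Cd59a. C3 had 790, 811, 690 and 511 CPM in CD31DUX against 718, 243 and 200 CPM in CD31WT, with a log2 fold change of 0.86 ± 0.39 (adjusted p = 0.279). C7, which joins C5b and C6 in the nascent pore, had 0.22 to 9.49 CPM in CD31DUX and 4.96 to 6.74 CPM in CD31WT (adjusted p = 0.855).

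FAPs of DUX4 mice differed from WT FAPs in 2 of 28 tested genes, Masp1 higher and Clu lower, against 3% of all genes called in PDGDUX over PDGWT, 1.23% higher and 1.77% lower. Clu had 74, 72.7, 89.6 and 89.1 CPM in PDGDUX, against 209, 151 and 154 CPM in PDGWT. The groups were clearly separate, the log2 fold change was -1.07 ± 0.18 (adjusted p = 0.00315) and the call held in all 14 alternatives. Clu is higher in endothelial cells, and the 9 endothelial markers summed to 102 to 172 CPM in PDGDUX against 242 to 307 CPM in PDGWT, with 4 of the 9 called lower. Their part in the fall of Clu was not tested. Masp1, a protease of the lectin pathway, had 5.72, 12, 9.02 and 5.31 CPM in PDGDUX, against 2.91, 1.69 and 1.76 CPM in PDGWT. Its log2 fold change was 1.91 ± 0.45 (adjusted p = 0.0294), and the call was lost when PDGDUX replicate 2 or 3 or any 1 of the WT libraries was left out (adjusted p up to 0.125). The median log2 fold change was 0.26 over the 28 genes and -0.07 over all genes tested. Of the 10 genes of classical initiation, 9 had fold changes above 0, with a median of 0.79 on the log2 scale, and none was called.

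None of the 4 genes that rose in endothelial cells passed the test in FAPs. C1s1 had 2141, 2181, 2417 and 2119 CPM in PDGDUX against 1757, 1791 and 1573 CPM in PDGWT, a log2 fold change of 0.38 ± 0.14 that did not pass the adjustment (adjusted p = 0.189). C1ra had 1394, 1556, 1509 and 1633 CPM in PDGDUX against 1057, 1057 and 1097 CPM in PDGWT (0.51 ± 0.23, adjusted p = 0.316). With limma voom C1ra, C1s1 and C4b were called higher in PDGDUX, with DESeq2 C4b was, and with the FAP groups alone C1ra was. The FAP groups alone also gave C2 as higher and C7 as lower. Serping1 had 4799 to 5184 CPM in PDGDUX against 4295 to 4707 CPM in PDGWT, with 0.15 ± 0.14 on the log2 scale (adjusted p = 0.707). C4b had 437, 413, 475 and 326 CPM in PDGDUX against 113, 155 and 282 CPM in PDGWT, without overlap, and a log2 fold change of 1.17 ± 0.39 (adjusted p = 0.15). C4b shares sequence with C4a, in which 48.9% of 31-base words are also found in C4b, so that reads may be divided between them. C4a was at or under 4.28 CPM in every library.

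The DUX4 effect itself differed between the cell types for C1s1 and Serping1. The difference, FAPs minus endothelial cells, was -1.20 ± 0.20 on the log2 scale for C1s1 (adjusted p = 0.00361) and -1.17 ± 0.20 for Serping1 (adjusted p = 0.00418), which makes 2 of 28 tested genes against 2.25% of all genes called, 1.7% below 0. Both calls held in all 20 alternatives. C1ra had a difference of -1.08 ± 0.33 (adjusted p = 0.106), Masp1 of 2.37 ± 0.60 (adjusted p = 0.0527) and Cd55 of -1.25 ± 0.37 (adjusted p = 0.101), none of which passed. The difference for Cd59a was 0.09 ± 0.34, with an interval of -0.58 to 0.76. Of the 8 FAP markers 5 also had a called difference below 0 in this comparison, and their part in the difference for C1s1 and Serping1 was not tested. Without CD31WT replicate 1 the count was 7, with C1ra, C3, C5ar1, Cd55 and Clu added.

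**Figure D3:**
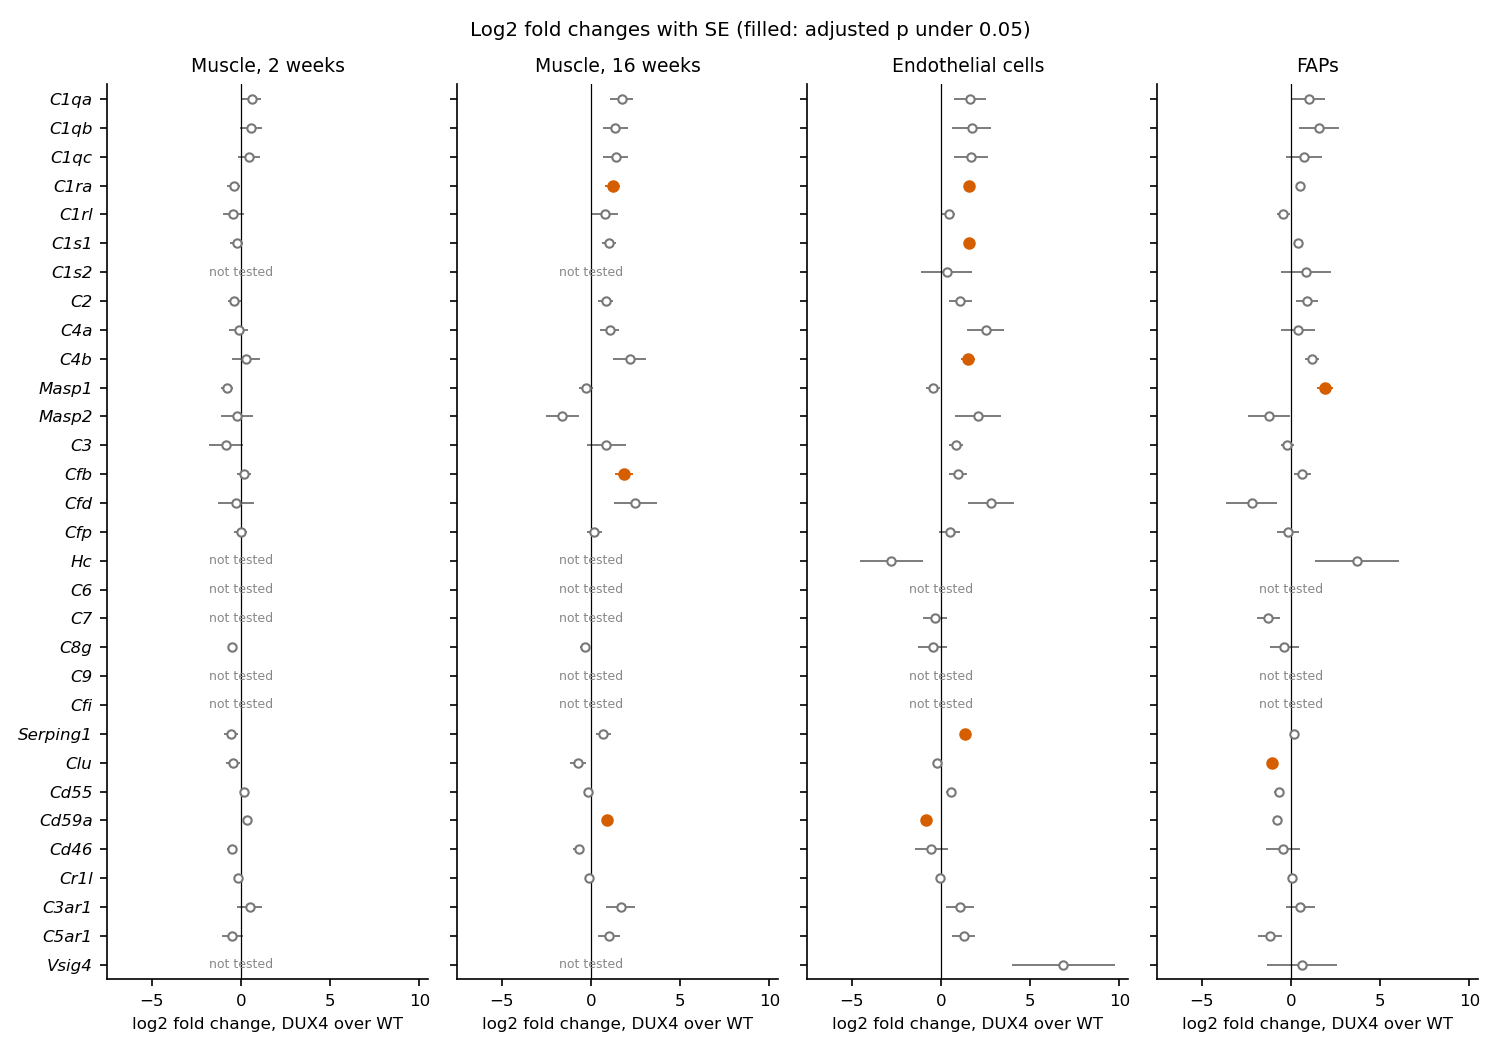
Log2 fold change with SE, DUX4 over WT, of each tested gene in the 4 comparisons, with filled points at an adjusted p under 0.05. Filled points number 0 and 3 in muscle at 2 and 16 weeks, 5 in endothelial cells and 2 in FAPs, and most genes of classical initiation lie to the right of 0 at 16 weeks and in endothelial cells.

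In whole muscle at 16 weeks 3 of 24 tested genes rose in DUX4 mice, Cfb, Cd59a and C1ra, and none fell, against 26.6% of all genes called in this comparison, 14.1% higher and 12.5% lower. In this fit of all muscle groups, which also takes its spread from the earlier libraries, the share of the complement genes called was thus below that of all genes. The number called depended on the fit. It was 6 with the 16-week groups alone, 7 with limma voom and 1 to 4 with each library left out. The share of all genes in those fits was not compared, so whether the lower share holds beyond the main fit was not tested. All 9 tested genes of classical initiation and all 4 of C3 and the alternative pathway had fold changes above 0, and the median log2 fold change over the 24 genes was 0.88, beside 0.01 over all genes tested.

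Cfb had 7.68, 6.56, 3.24 and 6.93 CPM in IDUX.16Weeks, against 1.69, 1.09, 1.98 and 2.02 CPM in WT.16Weeks. All DUX4 libraries were above all WT libraries, with a log2 fold change of 1.85 ± 0.49 (adjusted p = 0.0104), and the call held in all 16 alternatives. Cd59a had 51.7, 31.7, 64.5 and 60.8 CPM in IDUX.16Weeks, against 21.8, 26.2, 35.2 and 29.9 CPM in WT.16Weeks. The groups overlapped at 1 library, and the log2 fold change was 0.89 ± 0.26 (adjusted p = 0.0197), opposite in sign to that in endothelial cells. The call was lost in 6 of 16 alternatives. Among these were the Y-linked covariate and the fit without IDUX.16Weeks replicate 3, the muscle library richest in Y-linked RNA.

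C1ra had 13.8, 12.7, 11.2 and 20.4 CPM in IDUX.16Weeks, against 3.32, 8, 7.19 and 6.73 CPM in WT.16Weeks. The groups did not overlap, with a log2 fold change of 1.21 ± 0.43 (adjusted p = 0.0452), but the call was lost when any 1 of the 8 libraries was left out (adjusted p 0.054 to 0.131). C1s1, beside it on the chromosome, had 31.9, 33.1, 28.3 and 47.8 CPM in IDUX.16Weeks against 5.54, 22, 22.9 and 18.7 CPM in WT.16Weeks, also without overlap, and missed the threshold (1.03 ± 0.39, adjusted p = 0.0577). The 8 FAP markers summed to 639 to 1257 CPM in IDUX.16Weeks against 123 to 488 CPM in WT.16Weeks, with 3 of the 8 called higher. C1ra was 1.38% to 1.78% of that sum in IDUX.16Weeks against 1.56% to 2.7% in WT.16Weeks, and C1s1 3.2% to 4.66% and 4.5% to 4.96% of it, so that neither was higher in DUX4 muscle relative to FAP markers. Cfb was 0.769%, 0.924%, 0.507% and 0.552% of the sum in IDUX.16Weeks against 1.38%, 0.223%, 0.43% and 0.506% in WT.16Weeks, where all DUX4 libraries were above all WT libraries other than replicate 1. C4b was 1.53% to 3.14% of the sum in IDUX.16Weeks against 3.39%, 0.891%, 1.03% and 1.18% in WT.16Weeks, again with only replicate 1 of WT as high. Muscle fibre markers went the other way, at 51509 to 89973 CPM in IDUX.16Weeks against 139539 to 166763 CPM in WT.16Weeks, and 5 of 8 were called lower. The part of these shifts in the rise of C1ra, Cfb and Cd59a was not tested.

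C4b had 27.8, 22.3, 10.9 and 19.3 CPM in IDUX.16Weeks, against 4.17, 4.35, 4.76 and 4.71 CPM in WT.16Weeks. The ranges were far apart and the log2 fold change was 2.16 ± 0.95, yet the adjusted p was 0.103 in the fit with all 4 muscle groups, which also takes its spread from the 2-week libraries (0.377 to 24.7 CPM). With the 16-week groups alone, 6 genes were called, which added C1qa, C4b and Cfd. Serping1 had 47.2, 39.6, 31.8 and 66.2 CPM in IDUX.16Weeks against 13.5, 34.9, 33.4 and 33.1 CPM in WT.16Weeks, with overlap (0.69 ± 0.43, adjusted p = 0.254). C3 had 77, 51.2, 30.7 and 45.4 CPM in IDUX.16Weeks against 37.5, 17, 30.2 and 27.4 CPM in WT.16Weeks (0.86 ± 1.11, adjusted p = 0.604).

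**Figure D4:**
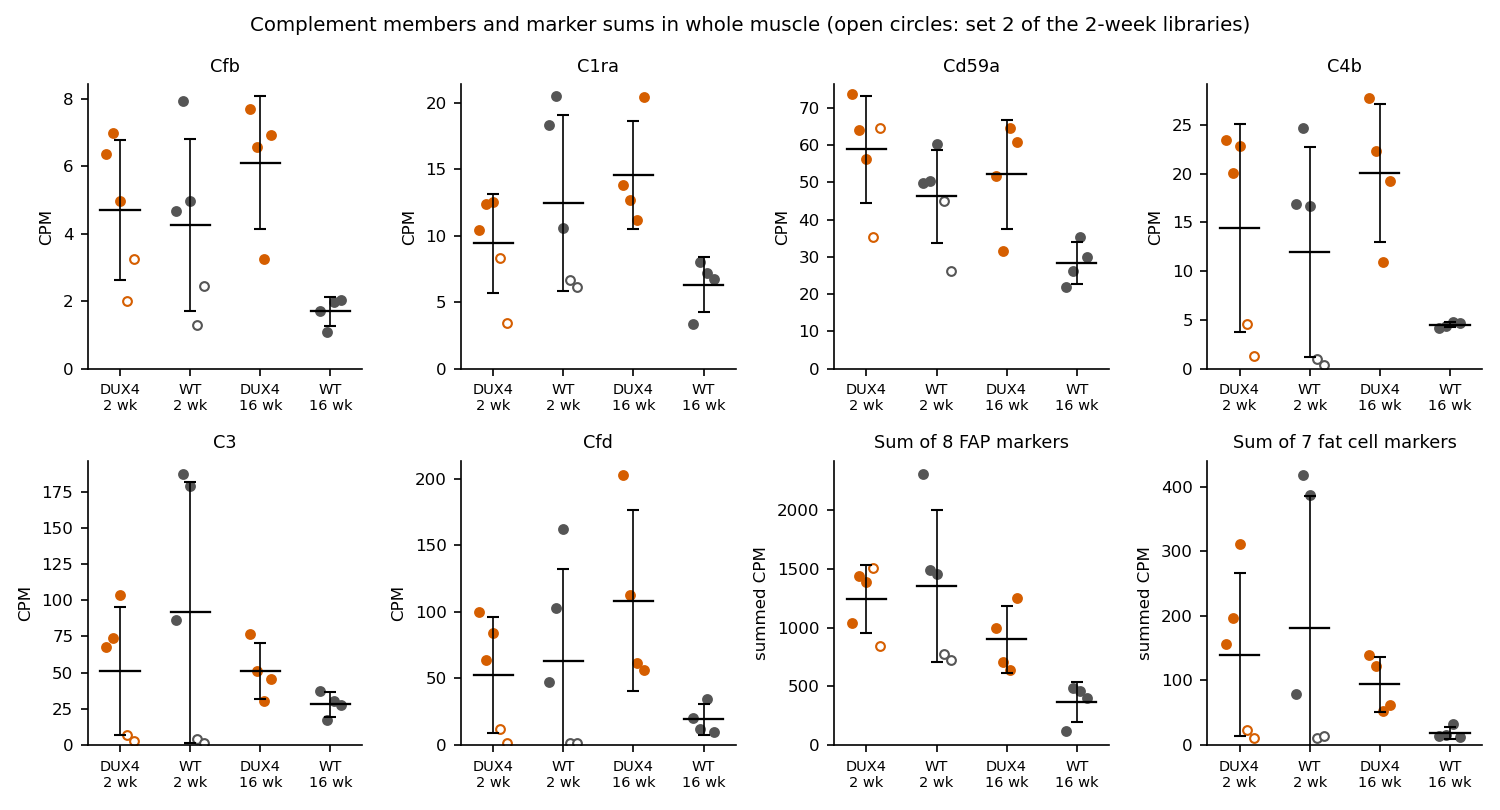
CPM of Cfb, C1ra, Cd59a, C4b, C3 and Cfd, and summed CPM of 8 FAP and 7 fat cell markers, in each whole-muscle library (points), with the mean (line) and SD (bar) of each group. At 16 weeks Cfb, C1ra and C4b are higher in DUX4 muscle without overlap, and at 2 weeks the 4 libraries of set 2 (open circles) hold the lowest C3, C4b and Cfd.

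At 2 weeks none of the 24 tested genes passed in muscle, against 17.6% of all genes called in IDUX.2Weeks over WT.2Weeks with edgeR. At an unadjusted p under 0.05 there was 1, Masp1, and DESeq2 called 0 and limma voom 1. Masp1 had 2.55, 1.43, 1.84, 5.03 and 4.56 CPM in IDUX.2Weeks, against 5.64, 2.82, 4.87, 6.76 and 6.32 CPM in WT.2Weeks. The groups overlapped, and the log2 fold change was -0.78 ± 0.33 (adjusted p = 0.117). With a term for the 2 sets of libraries it was -0.89 ± 0.25 and passed (adjusted p = 0.0212). In set 1 alone it was -1.22 ± 0.34 (adjusted p = 0.0377) and in set 2 alone -0.47 ± 0.24 (adjusted p = 0.402). Masp1 thus had a fold change below 0 in 2-week muscle and above 0 in FAPs, where it was called.

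The sets of 2-week libraries differed widely in complement RNA. C3 had 68, 74.3 and 104 CPM in set 1 of IDUX.2Weeks and 6.96 and 2.49 CPM in set 2, against 86.7, 187 and 179 CPM in set 1 of WT.2Weeks and 3.92 and 1.6 CPM in set 2. Over both genotypes the mean of set 1 was 31.1 times that of set 2 for C3, 22 times for Cfd and 11.7 times for C4b. Within sets the DUX4 effect on C3 was -0.89 ± 0.31 in set 1 (adjusted p = 0.0858) and 0.73 ± 0.66 in set 2 (adjusted p = 0.626). Serping1 had 29.1, 38.6 and 41.1 CPM in set 1 of IDUX.2Weeks against 68.5, 65.5 and 50 CPM in set 1 of WT.2Weeks, without overlap. It was called lower in that set alone (-0.76 ± 0.17, adjusted p = 0.0166), and had 27 and 13.5 CPM against 21 and 18.7 CPM in set 2 (0.01 ± 0.35, adjusted p = 0.994). Cd55 and Cr1l, the membrane regulators of highest level after Cd59a, differed little between sets, with mean ratios of 0.825 and 0.981. Whether the sets are different muscles is not given in the sources used here.

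The DUX4 effect at 16 weeks minus that at 2 weeks was above 0 for 20 of the 24 genes, and none passed, against 0.299% of all genes called with edgeR. The median difference was 1.14 over the 24 genes and -0.01 over all genes tested. The 2-week effect averages the 2 sets of libraries, where the estimates for C3 had opposite signs (-0.89 and 0.73). Which set the 16-week libraries resemble was not tested, so the difference may not be one of time alone. At an unadjusted p under 0.05 there were 5, C1ra, C1s1, C2, Cfb and Serping1, and neither DESeq2 nor limma voom called any. The difference was 1.61 ± 0.57 for C1ra (adjusted p = 0.187), 1.69 ± 0.64 for Cfb (adjusted p = 0.204) and 1.27 ± 0.58 for Serping1 (adjusted p = 0.268). For Cd59a it was 0.54 ± 0.35, with an interval of -0.15 to 1.23.

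C1q, which macrophages make, was set beside macrophage markers in each library. At 16 weeks C1qa had 11.7, 10.7, 10.8 and 18 CPM in IDUX.16Weeks, against 6.97, 2.87, 2.77 and 2.86 CPM in WT.16Weeks. The groups did not overlap, the log2 fold change was 1.71 ± 0.63 and the adjusted p was 0.0555 (0.0356 to 0.131 with each library left out). At 2 weeks it had 21.7, 18.9, 22.3, 5.96 and 4.7 CPM in IDUX.2Weeks, against 19.4, 12.9, 10.7, 2.03 and 3.3 CPM in WT.2Weeks, with overlap (adjusted p = 0.486).

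The sum of C1qa, C1qb and C1qc, set against the sum of 12 macrophage markers, was 21.7% to 28.1% in IDUX.16Weeks against 13.1% to 30.7% in WT.16Weeks. It was 11% to 27.3% in IDUX.2Weeks and 14% to 36.4% in WT.2Weeks, 15.4% to 20.9% in CD31DUX and 10.2% to 17.9% in CD31WT, and 12.6% to 23.9% in PDGDUX and 8.37% to 46.9% in PDGWT. In each pair the DUX4 and WT ranges overlapped. In endothelial cells they did so only through CD31WT replicate 1, at 17.9%, beside 11.8% and 10.2% in replicates 2 and 3. At 2 weeks the share was 24.5% to 36.4% in set 1 and 11% to 18.3% in set 2, so that the sets did not overlap. Macrophage markers summed to 93.8 to 271 CPM in IDUX.16Weeks against 33.5 to 212 CPM in WT.16Weeks, and 3 of 12 were called higher. In the sorted cells no macrophage marker was called in either DUX4 comparison, at 610 to 1259 CPM in CD31DUX against 87.6 to 769 CPM in CD31WT.

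**Figure D5:**
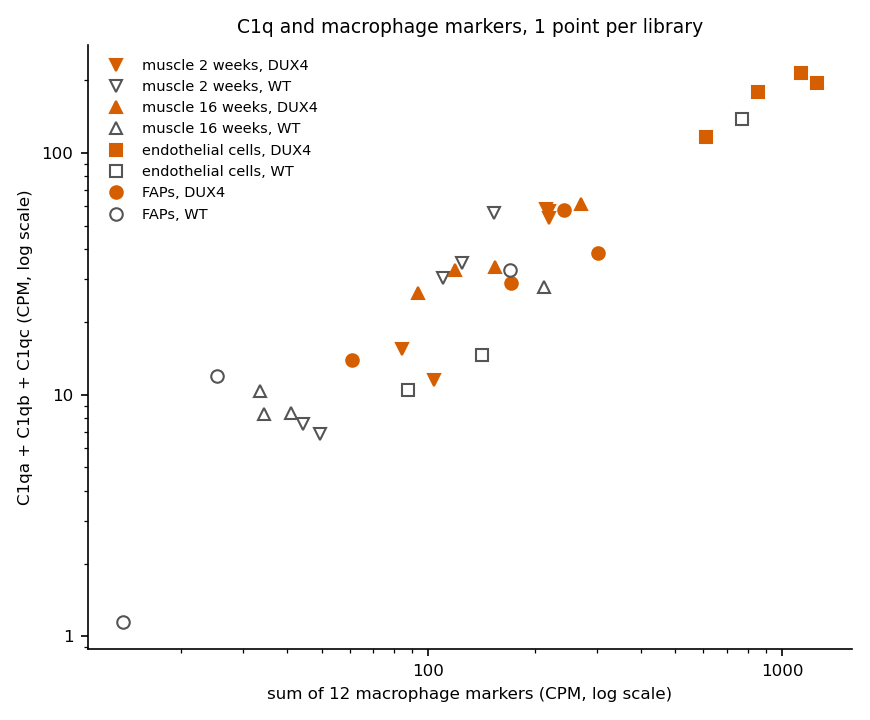
Summed CPM of C1qa, C1qb and C1qc against the summed CPM of 12 macrophage markers, both on log axes, with 1 point for each of the 32 libraries (filled: DUX4, open: WT). The lowest point is a WT FAP library at 13.7 and 1.15 CPM and the highest C1q belongs to a DUX4 endothelial library at 214 CPM.

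Among the receptors, C3ar1 had 3.16, 2.59, 8.2 and 10.1 CPM in IDUX.16Weeks, against 4.76, 0.932, 0.623 and 1.18 CPM in WT.16Weeks, overlapping only through WT replicate 1 (1.67 ± 0.81, adjusted p = 0.137). Without that library it was called (adjusted p = 0.0281). C5ar1, the receptor for C5a, was lower in FAPs than in endothelial cells of DUX4 mice, at 1.66, 5.45, 1.8 and 1.37 CPM in PDGDUX against 12.3, 13.9, 21.3 and 16.3 CPM in CD31DUX (-2.64 ± 0.63, adjusted p = 0.00374). Macrophage markers, at 61 to 303 CPM in PDGDUX and 610 to 1259 CPM in CD31DUX, differed in the same direction, and their part was not tested. Vsig4, a receptor of resident macrophages, was at or under 2.2 CPM in all 32 libraries.

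Cfd was the highest of the 31 genes per kilobase, with the union of exons as length, in 11 of the 18 whole-muscle libraries and nearly absent from the sorted cells. These were all 4 of IDUX.16Weeks, 1 of WT.16Weeks and the 3 of set 1 in each 2-week group, whereas Cd59a was the highest in all 4 libraries of set 2. It had 203, 113, 61.9 and 56.4 CPM in IDUX.16Weeks, against 20.5, 11.8, 34.9 and 9.93 CPM in WT.16Weeks, without overlap, and did not pass in the fit of all muscle groups (2.48 ± 1.21, adjusted p = 0.141). Adipoq, the fat cell hormone adiponectin, had 49.6, 34.9, 16.7 and 18.8 CPM in the same DUX4 libraries, against 2.87, 4.19, 9.29 and 1.85 CPM in WT.16Weeks. Cfd was thus 300% to 410% of Adipoq in IDUX.16Weeks against 281% to 714% in WT.16Weeks, and the ranges overlapped. In the sorted cells Cfd was at or under 3.37 CPM, and at 0 in 4 of the 7 FAP libraries. The 7 fat cell markers summed to 52.4 to 139 CPM in IDUX.16Weeks against 11.9 to 33.2 CPM in WT.16Weeks, without overlap. None of the 6 tested was called at 16 weeks, with a median log2 fold change of 2.37. Plin1 was at 0 in every 16-week library. It was also at 0 in IDUX.2Weeks replicates 1 and 3 and WT.2Weeks replicate 3, where Adipoq had 41, 49 and 59.3 CPM. The part of fat cell RNA in the Cfd values was not tested.

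The terminal pathway genes of the list were barely transcribed in these samples, apart from C7, and C8b, outside the list, is given below. Hc, the mouse gene for C5, was at or under 0.191 CPM in muscle and at or under 1.5 CPM in the sorted cells apart from 5.55 CPM in CD31WT replicate 1. C6 did not exceed 0.98 CPM, C9 0.549 CPM and C8g 2.91 CPM in any library. C7 was the exception, at 26.2, 23, 14.1 and 9.25 CPM in PDGDUX against 48.5, 45.6 and 38.3 CPM in PDGWT. The groups did not overlap, but the fold change of -1.28 ± 0.64 on the log2 scale did not pass (adjusted p = 0.381). With the FAP groups alone C7 was called lower in PDGDUX. Compared with endothelial cells, FAPs held more C7, by 1.97 ± 0.63 in DUX4 cells (adjusted p = 0.0263) and 2.91 ± 0.74 in WT cells (adjusted p = 0.00798). The first of these calls was lost in 7 of 15 alternatives. Cfi, the plasma protease that cuts C3b and C4b, had at most 1.48 CPM, in a PDGWT library.

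A further 30 genes of complement and its receptors, not in the list of 31, gave 17 tested genes in muscle and 18 in sorted cells. In muscle 2 of the 17 rose at 2 weeks and 4 at 16 weeks, and none fell, beside 17.6% and 26.6% of all genes called. C8b, a chain of C8, had 4.58, 9.95, 2.92, 0.464 and 3.52 CPM in IDUX.2Weeks and 0 in all 5 WT.2Weeks libraries, at least 16.1-fold higher with 3 counts per library as the limit. At 16 weeks it had 2.5, 2.44, 3.69 and 3.06 CPM in IDUX.16Weeks, against 0.0777 CPM in 1 WT library and 0 in the other 3 (adjusted p = 0.00068). Its partner chains C8a and C8g stayed at or under 0.191 and 2.75 CPM in muscle, and C8b was at 0 in all 14 sorted libraries. Susd4, a membrane protein that inhibits C3 convertases, had 3.91, 7.47, 11.6 and 8.23 CPM in IDUX.16Weeks against 0.195, 0.621, 0.17 and 0.168 CPM in WT.16Weeks (4.69 ± 0.50, adjusted p = 1.09e-05), and rose by 2.77 ± 0.43 at 2 weeks (adjusted p = 0.000252).

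Colec12, a scavenger receptor of the collectin family, was called in 3 of the 4 DUX4 comparisons. In FAPs it had 666, 715, 780 and 722 CPM in PDGDUX against 441, 452 and 318 CPM in PDGWT (0.84 ± 0.14, adjusted p = 0.00315). In endothelial cells it had 185 to 228 CPM in CD31DUX against 55.7 to 64.9 CPM in CD31WT (1.77 ± 0.14, adjusted p = 2.67e-06), and in 16-week muscle 9.28 to 19.7 CPM in IDUX.16Weeks against 3.06 to 6.37 CPM in WT.16Weeks (1.43 ± 0.30, adjusted p = 0.00222). Ptx3, a pentraxin that binds C1q, had 115 to 216 CPM in CD31DUX against 39.2 to 74.1 CPM in CD31WT (1.55 ± 0.29, adjusted p = 0.0046). The FAP marker sums given above were higher in the same CD31DUX and IDUX.16Weeks libraries, and their part in the rises of Colec12 and Ptx3 was not tested.

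Itgax, the alpha chain of complement receptor 4 and a marker of dendritic cells and some macrophages, had 7.03, 17.6, 12.7 and 18.6 CPM in CD31DUX against 0, 0.112 and 0 CPM in CD31WT (adjusted p = 0.00261). In 16-week muscle it had 0.942, 0.457, 17.5 and 42.1 CPM in IDUX.16Weeks against 5.67, 0.233, 0.51 and 0.168 CPM in WT.16Weeks (adjusted p = 0.0483). That call rested on DUX4 replicates 3 and 4, and it was lost in 9 of 15 alternatives. Vtn, which encodes vitronectin, an inhibitor of the membrane attack complex, fell in FAPs, at 157, 165, 120 and 86.4 CPM in PDGDUX against 266, 335 and 352 CPM in PDGWT (-1.27 ± 0.20, adjusted p = 0.00249). Like Clu, the other fluid-phase inhibitor of that complex, it was lower in every DUX4 FAP library than in every WT FAP library.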

How the data were processed

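RNA-seq libraries of whole muscle (500 ng of RNA) and of 75000 sorted cells were compared. The authors deposited expected counts per Ensembl gene, made with Salmon 0.6.0 on mm10, per the submitters' processing notes. The annotation release is not given in the sources used here. Whole-muscle and sorted libraries were made with different kits, per the labels' protocols, and levels are compared within each kind only. The 31 genes and all lists were chosen with earlier results of these data known.

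Counts were rounded and 18 muscle and 14 sorted libraries were fitted separately with edgeR 4.0.16 (R 4.3.3): filterByExpr (minimum count 10), TMM, robust quasi-likelihood test, 1 mean per group, adjustment over all genes, call at an adjusted p under 0.05. SE is the log2 fold change over the square root of F, and intervals are 1.96 SE on each side. CPM are TMM-normalised, and values per kilobase use the union of exons in GENCODE vM21 (GRCm38). Groups follow the labels, and replicates are numbered in accession order, which was not used to pair samples, since the labels do not say whether both sorted cell types came from the same mice. No 2 libraries within a group (50 pairs) held identical values. Marker and role lists came from background knowledge. The interferon-response type motif was shortened, after the scan, from a longer form that fewer promoters hold. Paralogues were compared by shared 31-base words of their longest transcripts. Named genes were those called in a DUX4 or interaction comparison, the 3 highest per kilobase in each sorted cell type, C1qa, C4b, C3, Cfd, Hc, C7, Serping1, Cd55 and C3ar1, and up to 4 called other complement genes per DUX4 comparison, of which 1 is not reported here. C1rl, Cr1l, Cd46, C4a, C1s2, C5ar1, Vsig4, Cfi and the remaining members are given to account for the list. On simulated counts of 15396 muscle genes, 44% of 100 genes changed by 1 on the log2 scale and 77% of 100 changed by 2 were called at 16 weeks. In FAPs, over 17008 genes, these were 24% and 56%. Only 100 genes of each size were changed, a smaller share than the 26.6% called at 16 weeks and 3% in FAPs. The cutoff of the adjustment depends on that share, so these rates are not the power of the real comparisons. Alternatives were relative log expression factors, DESeq2 1.42.0, limma voom (limma 3.58.1) with quality weights, no low-count filter, a minimum count of 50, the compared groups alone, a Y-linked covariate, the sets of 2-week libraries (divided at 20 CPM of Hoxd8) as a term or each alone, WT.16Weeks replicates 1 and 4 left out, and each library left out.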

Additional observations from a re-analysis of the deposited data

Results flagged for a closer look

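The DUX4 effect, FAPs minus endothelial cells, differed by a test of the difference itself for C1s1 (-1.20 on the log2 scale), Serping1 (-1.17) and Colec12 (-0.94). Of the 8 FAP markers, which summed higher in CD31DUX than in CD31WT, 5 were also called below 0, with a median of -1.41 over the 8. The part of FAP RNA in the 3 differences was not tested. Among the named members, 7 of 79 group-by-gene sets of 4 or 5 libraries held a library far from the others. The sets had a median of at least 1 CPM, a level chosen after the values were seen. The rule flags about 1 in 20 of independent, normally distributed sets. These sets share libraries, and several of the 7 came from 1 library, so the count cannot be set against that rate. In WT.16Weeks replicate 1, C1qa was at 6.97 CPM (the other 3 libraries 2.77 to 2.87), C3ar1 at 4.76 CPM (0.623 to 1.18), Clu at 95.8 CPM (25.6 to 34) and Serping1 at 13.5 CPM (33.1 to 34.9). That library also had the highest macrophage and lowest FAP marker sums of its group, 212 and 123 CPM. C1qa was at 18 CPM in IDUX.16Weeks replicate 4 (10.7 to 11.7 in the rest), Clu at 52.2 CPM in WT.2Weeks replicate 3 (26.6 to 32.5) and Serping1 at 1094 CPM in CD31DUX replicate 1 (1297 to 1325).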

How the results depend on the processing

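No direction was reversed for any called member under any alternative tried, and calls of members held in 538 of 605 checks. Most checks were of FAPs against endothelial cells, where calls held in 225 of 238 (DUX4) and 164 of 181 (WT). In DUX4 against WT, C1ra, C1s1 and Serping1 in endothelial cells, Cfb at 16 weeks and Clu in FAPs held throughout. C4b and Cd59a in endothelial cells held in 6 of 14 each, C1ra and Cd59a at 16 weeks in 6 and 10 of 16, and Masp1 in FAPs in 9 of 14. The number of members called at 2 weeks (0) was 1 with limma voom, 1 with a term for the sets, 2 in set 1 alone and 0 to 2 with each library left out. At 16 weeks (3) it was 5 with DESeq2, 7 with limma voom, 5 with the stricter filter, 6 with only the groups compared, and 1 to 4 with each library left out, with Cfb in every case and 2 without WT.16Weeks replicates 1 and 4 together. In endothelial cells (5) it was 10 with limma voom, 3 with the Y-linked covariate, and 3 to 9 with each library left out. In FAPs (2) it was 5 with limma voom, 5 with only the groups compared, and 1 to 2 with each library left out. For FAPs minus endothelial cells (2) it was 5 with DESeq2 and 2 to 7 with each library left out. For 16 weeks minus 2 weeks it was 0 throughout. FAPs against endothelial cells gave 13 to 14 in WT and 14 to 16 in DUX4 mice with each library left out. The cause of these shifts was not tested. With transcript length in place of the union of exons, the same 3 genes led over both groups of each sorted cell type and over muscle, but the highest gene changed in CD31WT, where it was Clu in place of Serping1, and in WT.16Weeks, where it was Clu in place of Cfd. No paired analysis was made, because the groups share no replicate numbers in the labels. The labels do not say whether both sorted cell types came from the same mice. The tests of FAPs against endothelial cells, and of the DUX4 effect between them, treat the libraries as unpaired, which limits their p-values. Levels under 0.505 CPM were not detectable in every library.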
